A study of Homo sapiens with 12 samples.

Results

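The ubiquitin-specific proteases (USPs) are the largest family of human deubiquitinases, the enzymes that remove ubiquitin from proteins. Their transcripts were followed in L428, an established Hodgkin lymphoma cell line, under the proteasome inhibitor ixazomib. The members were chosen by name: each gene symbol of the deposited signal table that starts with USP followed directly by a number, without the Y-linked member. This gave 54 of 31303 symbols, and 34 of the 54 were detected on enough arrays to be tested, among 14953 genes tested in all. The 12 samples, 3 in each of 4 groups, were profiled for total RNA with Illumina HT-12 microarrays. These were L428 cells resistant to ixazomib, L428 cells given 71.25 nM ixazomib for 24 h, L428 cells given 25 nM ixazomib for 24 h, and control L428 cells. The column headers call the drug MLN2238. The labels give neither the dose used to select the resistant cells, nor how many clones they come from, nor whether they were harvested with drug present. For 1 sample the title gives 71.25 nM and the description 25 nM, and it was kept by its title.

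Ubiquitin chains mark proteins for the proteasome, and deubiquitinases edit these chains before, at and after that step. USPs are cysteine proteases with a shared catalytic fold, and they differ in where they sit: at the proteasome, on chromatin, on endosomes, on mitochondria. At the proteasome they strip chains from substrates and break up the free chains that degradation leaves behind, which returns ubiquitin to the pool. Not every USP symbol is an active deubiquitinase: USP39 is a splicing factor without protease activity, and USP6NL is a GTPase-activating protein of Rab proteins that carries the name by similarity to a part of USP6.

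The series text mentions biological triplicates beside the 25 nM treatment alone, so the spread behind each p-value is that between samples and may be technical. Mean signals were 293.2 to 326.7 on the resistant arrays, 342.3 to 353.8 at 71.25 nM, 316.4 to 384 at 25 nM and 343.5 to 400.5 in control cells. Within groups, correlations between arrays lay between 0.9898 and 0.9939. Of 7 Hodgkin cell markers, 6 were detected on all 12 arrays, and CCL22 was detected on none of the 3 resistant arrays, 2 of 3 at 71.25 nM and all 3 in each of the other groups. Their summed normalized signal was 26490 to 29570 on the resistant arrays, 19510 to 22970 at 71.25 nM, 32400 to 33560 at 25 nM and 33750 to 39090 in control cells. CCL17 and FSCN1, the brightest of the 7, weigh most in that sum. In the tests used below, at an adjusted p under 0.05, TRAF1 was higher than control in all 3 other groups. CCL17, CCL22 and FUT4 were lower in all 3, FSCN1 and IRF4 in resistant cells and at 71.25 nM, and TNFRSF8 passed in none. Of the B cell genes, CD79A was detected on all 12 arrays, MS4A1 and CD79B on some arrays of each group, and PAX5 and POU2AF1 on none. Of the T cell genes, CD3D, CD3E and CD3G were detected on no array, CD247 on 1 resistant array, and CD2 on all 3 arrays at 71.25 nM, 1 of 3 at 25 nM and no resistant or control array. The myeloid markers CSF1R and CD14 were higher in resistant than in control cells, and LYZ, detected on all 12 arrays, did not pass. The summed normalized signal of the 4 myeloid markers was 201.1 to 243.5 on the resistant arrays, 140.7 to 176.5 at 71.25 nM, 142.3 to 168.3 at 25 nM and 129.4 to 181.4 in control cells, and ITGAM was detected on no array. The part of these markers and of the mean signals in the differences below was not tested. In bulk RNA, fewer cells of a type and less RNA per cell cannot be told apart.

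Of the 54 symbols, 40 matched a promoter in the RefSeq table of build GRCh38.p14, which spans 250 bases before to 50 bases after each start. The promoters of USP5, USP11 and USP30 are shown because these 3 genes were higher in all 3 groups set against control. All lie on the + strand, USP5 at chr12:6851900-6852199, USP11 at chrX:47232759-47233058 and the pair of USP30 entries at chr12:109022839-109023138 and chr12:109052326-109052625. Capitals mark the CCAAT box, written as ATTGG where it lies on the other strand.
USP5 promoter: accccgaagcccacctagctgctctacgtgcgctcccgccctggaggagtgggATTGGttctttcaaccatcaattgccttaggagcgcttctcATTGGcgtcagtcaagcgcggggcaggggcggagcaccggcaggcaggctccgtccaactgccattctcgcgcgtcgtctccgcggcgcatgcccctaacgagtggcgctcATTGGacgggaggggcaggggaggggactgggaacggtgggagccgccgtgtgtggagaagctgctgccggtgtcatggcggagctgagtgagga
USP11 promoter: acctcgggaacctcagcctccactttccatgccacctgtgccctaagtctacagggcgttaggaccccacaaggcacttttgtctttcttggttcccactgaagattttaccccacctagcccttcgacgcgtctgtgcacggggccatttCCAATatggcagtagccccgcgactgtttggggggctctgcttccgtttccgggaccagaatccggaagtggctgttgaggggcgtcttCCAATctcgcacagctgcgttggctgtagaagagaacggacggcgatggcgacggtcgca
USP30 promoter, entry 1: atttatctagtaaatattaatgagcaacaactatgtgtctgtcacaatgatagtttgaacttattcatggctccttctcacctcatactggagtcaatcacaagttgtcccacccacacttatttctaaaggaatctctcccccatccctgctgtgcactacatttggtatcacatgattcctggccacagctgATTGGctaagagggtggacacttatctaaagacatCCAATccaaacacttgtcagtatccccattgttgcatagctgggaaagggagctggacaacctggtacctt
USP30 promoter, entry 2: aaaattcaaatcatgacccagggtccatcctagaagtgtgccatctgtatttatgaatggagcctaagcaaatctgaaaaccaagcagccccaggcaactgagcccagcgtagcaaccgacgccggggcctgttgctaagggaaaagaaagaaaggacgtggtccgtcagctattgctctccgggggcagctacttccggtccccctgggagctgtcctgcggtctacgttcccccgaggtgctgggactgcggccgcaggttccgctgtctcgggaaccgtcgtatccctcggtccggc
The USP5 promoter held 3 CCAAT boxes, the USP11 promoter 2, the first USP30 promoter 2 and the second USP30 promoter 0. The letters CCAAT, searched on both strands, were present in 34.6% of all 35116 promoters in the table and in promoters of 9 of the 27 tested USP genes that matched. A heat shock element, GAANNTTC or TTCNNGAA, stood in none of the 4 windows shown, in 13.5% of all promoters and in those of USP16 and USP39. The antioxidant element TGACNNNGC stood in none of the 4, in 13.3% of all promoters and in those of USP2, USP13, USP14 and USP38. The ATF4 element TGATGNAA stood in 3.62% of all promoters and in none of the 27. The other 3 motifs had no match in the 4 windows, so no matches overlap there. The motifs were picked after the values were known, and a match is a string of letters only.

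The USP transcripts covered a wide range of signals, from probes at background to some well above it. Values below are normalized log2 signals of the brightest kept probe of a gene, and differences are on the same log2 scale. Probes bind with different strength, so levels are compared between groups for a gene and never between genes. The 34 tested genes had means over the 12 arrays between 4.72 (USP32) and 9.70 (USP39), with a median of 7.05. The dimmest signal counted as detected lay between 4.81 and 4.93 on an array. Of the 34, 30 were detected on all 12 arrays, and USP32, USP45, USP46 and USP6NL on fewer. The 20 untested genes had means of 4.29 to 4.76: 11 were detected on no array, 5 on 1 array and 4 (USP19, USP20, USP43 and USP44) on 2 arrays. Among the 11 were the germ line genes USP26 and USP29 and both USP17 symbols, whose many near-identical copies a probe cannot separate. USP28 and USP47, which act in the DNA damage response, were also among the 11. Not detected on these arrays does not show that a gene is silent.

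**Figure D1:**
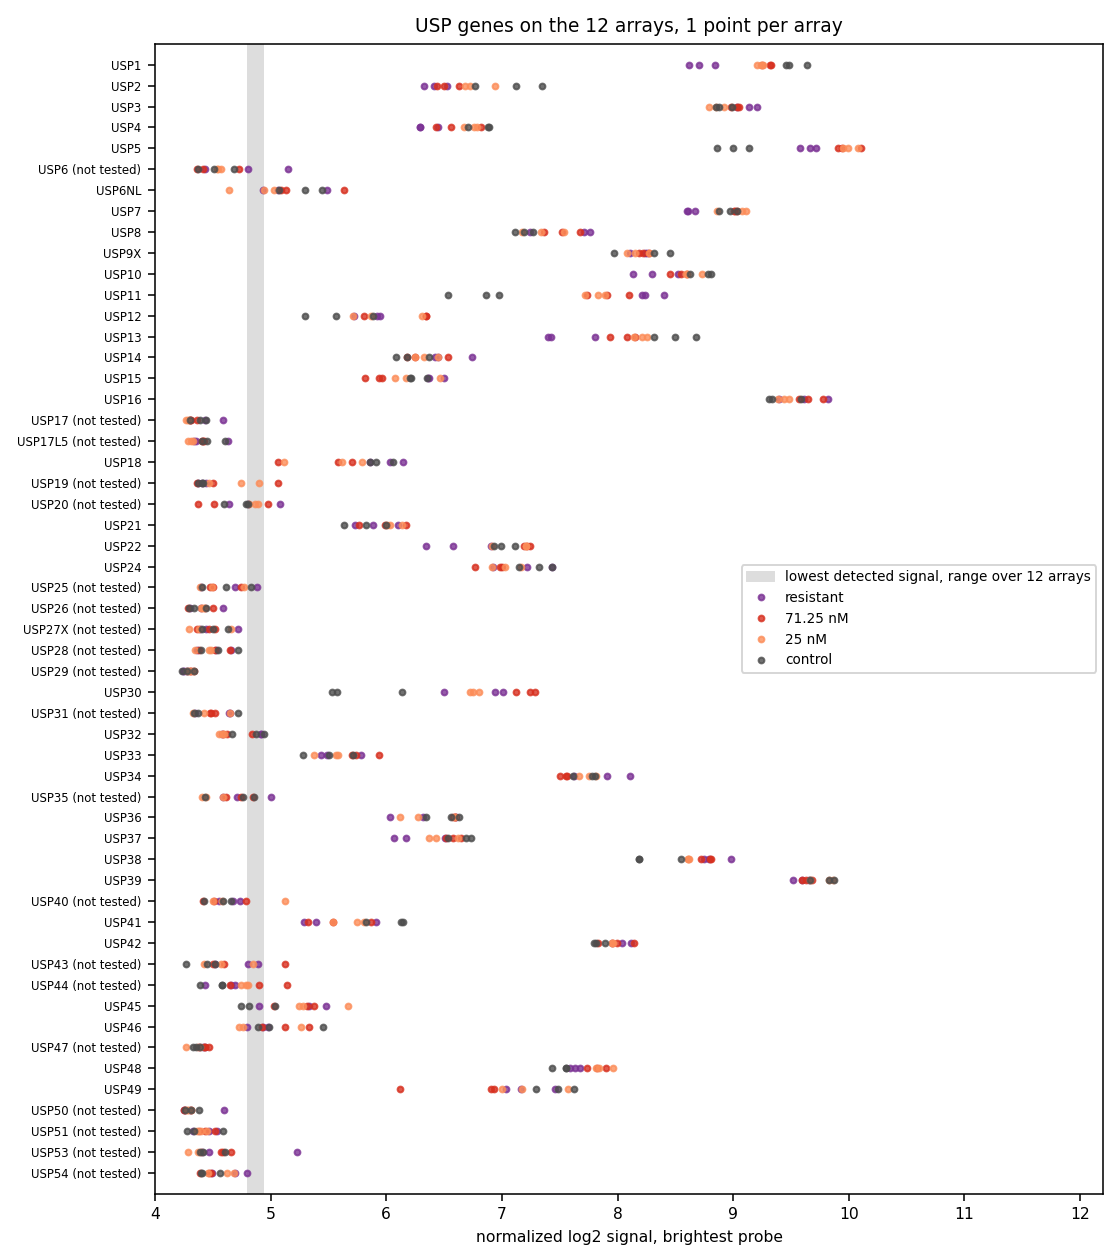
Normalized log2 signal (x axis) of all 54 USP symbols (y axis, ordered by number), 1 point per array, coloured by group; the grey band is the range over 12 arrays of the dimmest detected signal. The 20 untested symbols have means of 4.29 to 4.76, left of the band, and USP5, USP11 and USP30 show control points left of the other groups' points.

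Set against control, up to 14 of the 34 tested USP genes changed, and USP5, USP11 and USP30 were higher in all 3 groups. A gene was called changed at an adjusted p under 0.05, adjusted over all 20414 kept probes. In resistant cells 14 of 34 tested USP genes changed (41.2%), against 47.1% of all genes tested. Of these, 5 were higher (14.7%, against 23% of all genes) and 9 lower (26.5%, against 24.1%). At 71.25 nM 11 changed (32.4%, against 39.1%), 6 higher (17.6%, against 19.4%) and 5 lower (14.7%, against 19.6%). At 25 nM 6 changed (17.6%, against 27%), 5 higher (14.7%, against 13.3%) and 1 lower (2.94%, against 13.7%). The 3 comparisons share the control arrays. The shares of changed USP genes lie near or below those of all genes and are no result about the family.

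Groups of 3 arrays did not overlap for 18 USP genes in resistant cells (52.9%, against 53.8% of all genes), for 16 at 71.25 nM (47.1%, against 48.1%) and for 14 at 25 nM (41.2%, against 42%). An exact permutation test of 3 arrays against 3 cannot go below p = 0.1. The median difference of the 34 genes from control was 0.02 in resistant cells (all genes -0.02), 0.04 at 71.25 nM (all genes -0.006) and -0.01 at 25 nM (all genes -0.002). Across the 4 groups 15 of 34 passed the moderated F test (44.1%, against 52.7% of all genes). In all, 20 genes changed in at least 1 comparison with control and 12 changed in none of the 6 comparisons made: USP6NL, USP9X, USP14, USP16, USP21, USP32, USP33, USP34, USP36, USP39, USP42 and USP46. The 12 hold some of the most studied members, such as USP9X, which acts on MCL1, and USP14 at the proteasome. These counts use the brightest probe of a gene, and the dimmer probes of USP14 and USP16 passed in at least 1 comparison.

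Quantile normalization makes each difference relative to the other genes. Under median scaling the median of all genes was -0.14 in resistant against control cells, -0.13 against 71.25 nM and -0.16 against 25 nM, and 30.5% of changed genes were higher in resistant than in control cells, against 48.8% with quantile normalization. Of the USP genes 2 were then higher and 10 lower in resistant than in control cells. The share of all genes called was not counted under median scaling, so these counts are no result about the family. That scaling made the resistant differences from control of USP7 and USP10 over 1.5 times larger, at -0.67 and -0.73.

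Sizes also depend on the background correction. On the authors' values, as on signals with no background removed, several differences were over 1.5 times smaller. USP30 differed from control by 0.52 in resistant cells, 0.76 at 71.25 nM and 0.48 at 25 nM, and USP2 by -0.38 in resistant cells and -0.33 at 71.25 nM. In resistant cells USP4 differed by -0.26, USP22 by -0.23, USP37 by -0.21 and USP41 by -0.20. At 71.25 nM USP49 differed by -0.50, USP12 by 0.24, USP24 by -0.24 and USP15 by -0.16, and at 25 nM USP45 differed by 0.17. On the authors' values all of these stayed past the threshold except USP45, and with no background removed USP15 did not pass either (adjusted p = 0.0521).

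**Figure D2:**
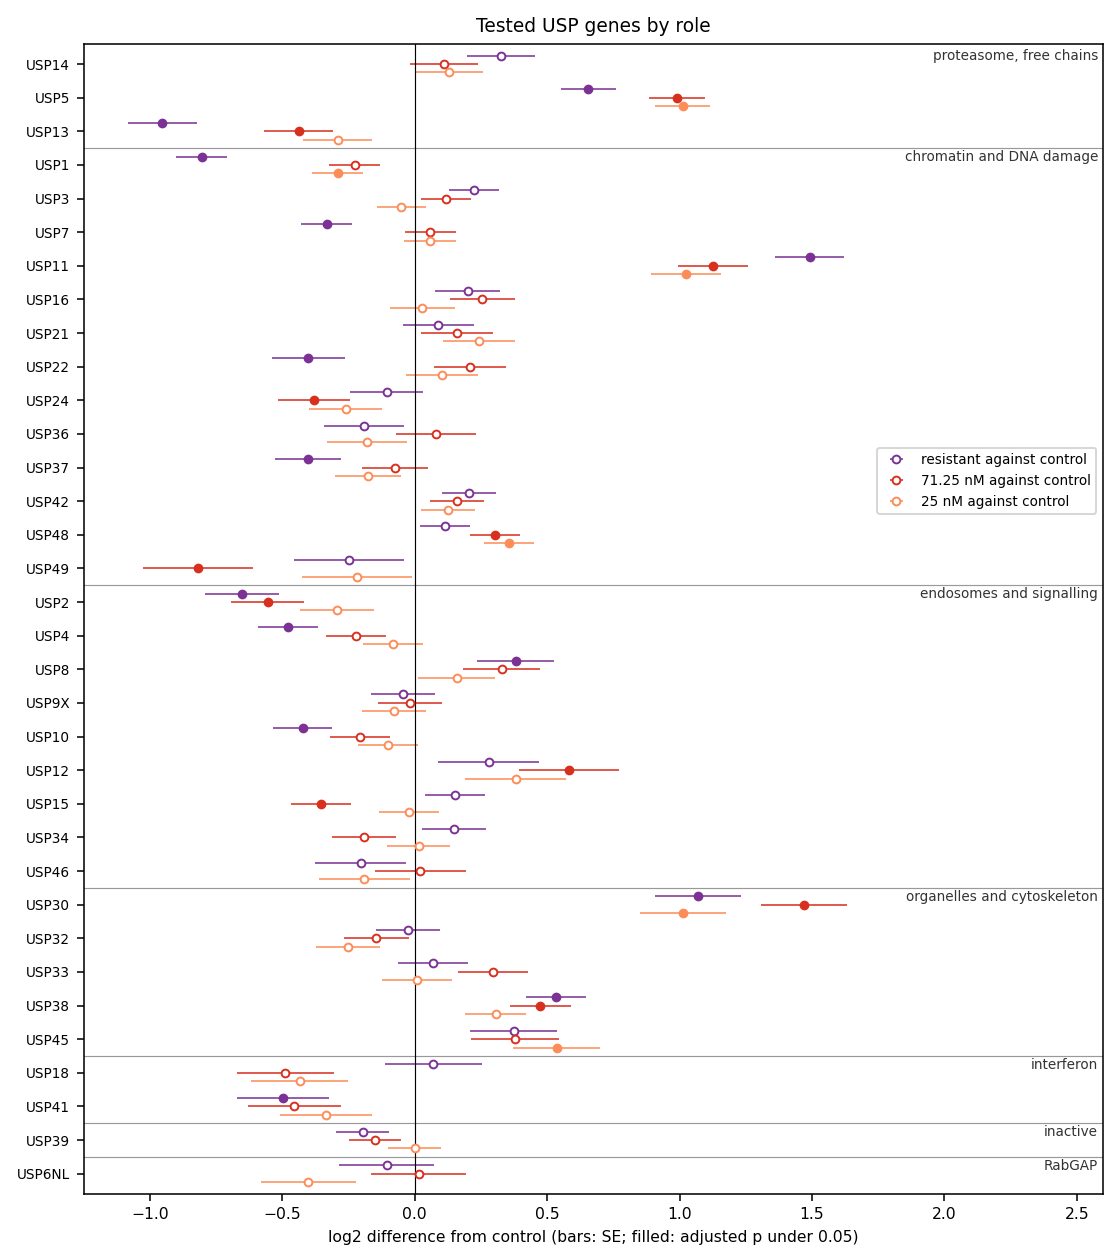
Log2 difference from control (x axis; bars are standard errors, n = 3 arrays per group) of the 34 tested USP genes (y axis) by role, with filled points for adjusted p under 0.05. USP5, USP11 and USP30 are filled and to the right of 0 in all 3 comparisons, USP13 and USP1 lie farthest to the left in resistant cells (-0.95 and -0.80), and USP14, USP9X and USP39 have open points only.

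Among the genes of the proteasome and of free chains, each by its brightest probe, USP5 rose in every comparison with control. USP13 was lower in resistant cells and at 71.25 nM, and USP14 passed in none. The dimmer probe of USP13 was also lower at 25 nM, and that of USP14 was higher at 25 nM and in resistant cells. USP5, also called isopeptidase T, takes apart unanchored ubiquitin chains. It had 9.71, 9.66 and 9.58 in resistant cells, 10.11, 9.91 and 9.94 at 71.25 nM, 9.95, 9.99 and 10.08 at 25 nM, against 9.14, 8.99 and 8.86 in control cells. Every control array lay below every other array, and the resistant arrays lay between the control and the drug-treated ones. The difference from control was 0.66 ± 0.10 SE in resistant cells (1.57-fold, adjusted p = 0.000151), 0.99 ± 0.10 SE at 71.25 nM (1.99-fold, adjusted p = 6.64e-06) and 1.01 ± 0.10 SE at 25 nM (2.02-fold, adjusted p = 1.34e-05). Under median scaling the resistant difference was 0.31 and did not pass (adjusted p = 0.13, the highest over 25 alternatives, from 4.02e-07). Under that scaling the median of all genes was -0.14, and single genes moved by more or less.

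USP13 is the closest relative of USP5 and is linked to protein quality control at the endoplasmic reticulum. Its signals were 7.80, 7.42 and 7.40 in resistant cells, 8.08, 8.15 and 7.94 at 71.25 nM, 8.25, 8.15 and 8.22 at 25 nM, against 8.68, 8.50 and 8.31 in control cells. The resistant arrays were the lowest and the control arrays the highest, with no overlap between these and the others. USP13 was 0.516-fold of control in resistant cells (-0.95 ± 0.13 SE, adjusted p = 3.76e-05) and fell by 0.44 ± 0.13 SE on the log2 scale at 71.25 nM (adjusted p = 0.0164). The difference at 25 nM, -0.29 ± 0.13 SE, did not pass (adjusted p = 0.122). The 71.25 nM call was lost without control array 1 (adjusted p = 0.0771) or 71.25 nM array 9 (adjusted p = 0.0642), with a range over the alternatives of 2.49e-06 to 0.0771. The mean of its probes gave -1.03.

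USP14 trims chains on substrates held at the proteasome and is switched on by binding there. It had 6.45, 6.75 and 6.42 in resistant cells, 6.25, 6.53 and 6.18 at 71.25 nM, 6.45, 6.32 and 6.25 at 25 nM, against 6.37, 6.09 and 6.18 in control cells. The resistant arrays all lay above the control arrays, and the drug-treated arrays overlapped both. The differences from control were 0.33 ± 0.13 SE in resistant cells (adjusted p = 0.0536), 0.11 ± 0.13 SE at 71.25 nM (95% interval -0.17 to 0.39) and 0.13 ± 0.13 SE at 25 nM (95% interval -0.15 to 0.41). The resistant difference did pass without control array 1 (adjusted p = 0.0361), 71.25 nM array 8 (0.0414) or resistant array 12 (0.0494). It also passed with cyclic loess (0.0425), the filter of 6 arrays (0.045), housekeeping scaling (0.0268), an offset of 50 (0.0447) and the mean of kept probes (0.48, adjusted p = 0.00238), with a range of 0.00238 to 0.435 over the alternatives.

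**Figure D3:**
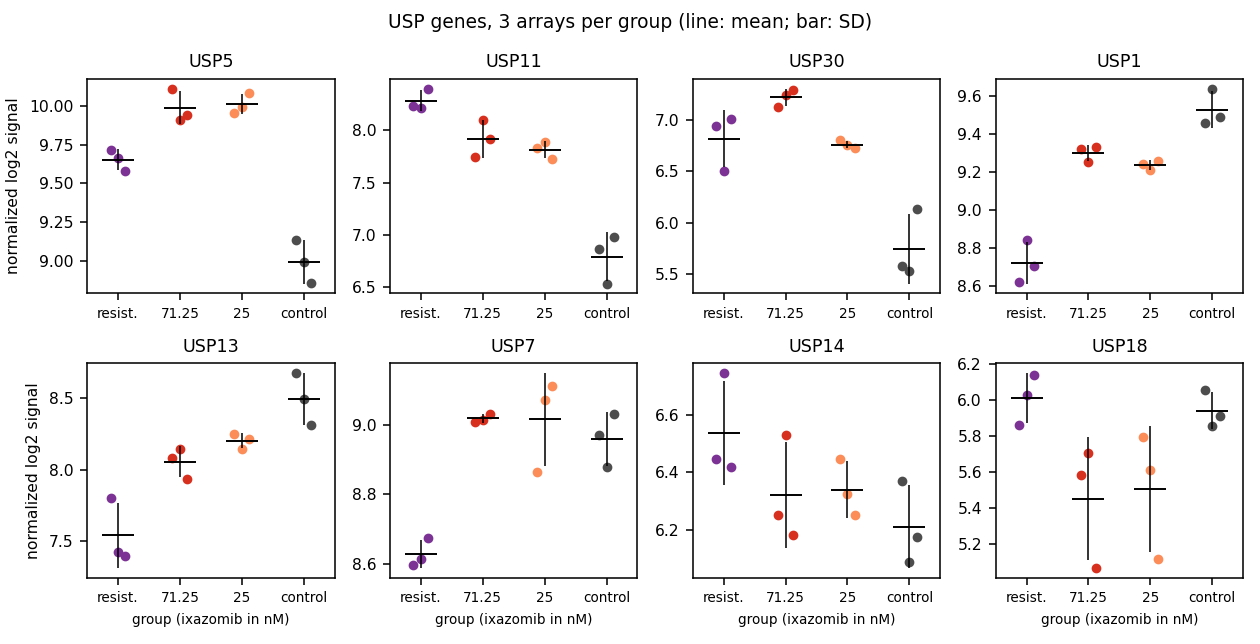
Normalized log2 signal (y axis, a scale of its own in each panel) of 8 USP genes on each array by group (x axis; points are arrays, lines group means, bars SD, n = 3). USP5, USP11 and USP30 have every control array below all others, USP1 has every resistant array at the bottom, and the groups of USP14 and USP18 overlap in part.

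Of 18 genes listed for chromatin, replication and DNA damage, 13 were tested. In resistant cells 1 was higher and 4 lower, at 71.25 nM 2 were higher and 2 lower, and at 25 nM 2 were higher and 1 lower. Of all genes 23% were higher and 24.1% lower in resistant cells, 19.4% and 19.6% at 71.25 nM, and 13.3% and 13.7% at 25 nM. USP11, a nuclear enzyme tied to DNA repair with BRCA2, was higher in every comparison with control. It had 8.24, 8.21 and 8.40 in resistant cells, 7.74, 8.10 and 7.91 at 71.25 nM, 7.84, 7.89 and 7.72 at 25 nM, against 6.86, 6.53 and 6.98 in control cells. The resistant arrays were the highest, the drug-treated arrays were next and overlapped each other, and the control arrays were lowest. The difference from control was 1.49 ± 0.13 SE in resistant cells (2.81-fold, adjusted p = 6.57e-07), 1.13 ± 0.13 SE at 71.25 nM (2.18-fold, adjusted p = 1.6e-05) and 1.02 ± 0.13 SE at 25 nM (2.03-fold, adjusted p = 8.33e-05). On the authors' values the 25 nM and 71.25 nM differences were 0.67 and 0.75, and each remained past the threshold.

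USP1, which with its partner WDR48 removes ubiquitin from FANCD2 and PCNA, was the clearest fall of this group. It had 8.62, 8.84 and 8.70 in resistant cells, 9.32, 9.25 and 9.33 at 71.25 nM, 9.24, 9.21 and 9.26 at 25 nM, against 9.45, 9.64 and 9.49 in control cells. Every resistant array was below every other array, and every control array above. In resistant cells USP1 was 0.572-fold of control (-0.80 ± 0.10 SE, adjusted p = 1.22e-05). At 71.25 nM the difference was -0.23 ± 0.10 SE and did not pass (adjusted p = 0.0841). It did pass in 7 alternatives, among them the authors' values (adjusted p = 0.0184), the replicate block on these (0.023), no background correction (0.0178) and the mean of kept probes (-0.40, adjusted p = 0.00333), with a range of 0.00333 to 0.241. At 25 nM USP1 fell by 0.29 ± 0.10 SE on the log2 scale (adjusted p = 0.0412). The 25 nM call was lost without any of control arrays 1, 2 and 3 (adjusted p = 0.0546, 0.134 and 0.0583), 25 nM arrays 4, 5 and 6 (0.0912, 0.11 and 0.0808), 71.25 nM array 7 (0.0548) or resistant array 12 (0.0524), with a range of 0.0046 to 0.168 over the alternatives. It was also lost with median scaling (0.168), housekeeping scaling (0.0636) and only the groups compared in the model (0.0762).

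USP7, which acts on MDM2 and p53, had 8.60, 8.61 and 8.67 in resistant cells, 9.01, 9.02 and 9.03 at 71.25 nM, 8.86, 9.07 and 9.11 at 25 nM, against 8.97, 8.88 and 9.03 in control cells. The resistant arrays were below all others, and the drug-treated and control arrays overlapped. USP7 was lower in resistant than in control cells by -0.33 ± 0.10 SE (adjusted p = 0.0125), and that call held in all 25 alternatives. With drug the differences were 0.06 ± 0.10 SE at 71.25 nM (95% interval -0.15 to 0.27, and -0.03 under median scaling) and 0.06 ± 0.10 SE at 25 nM (95% interval -0.15 to 0.27).

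USP22, the enzyme of the SAGA coactivator that acts on histone H2B, had 6.91, 6.34 and 6.58 in resistant cells and 6.99, 6.93 and 7.11 in control cells. The difference was -0.40 ± 0.14 SE (adjusted p = 0.0278), and the nearest arrays of the groups, at 6.91 and 6.93, almost met. The call was lost without control array 1 (adjusted p = 0.0556), control array 3 (0.0868), resistant array 11 (0.136) or resistant array 12 (0.0702), with a range of 0.00389 to 0.136 over the alternatives. Housekeeping scaling (0.0531) and only the groups compared in the model (0.0581) ended it too. USP37, which promotes entry into S phase, had 6.07, 6.17 and 6.51 in resistant cells and 6.69, 6.53 and 6.73 in control cells, a difference of -0.40 ± 0.12 SE (adjusted p = 0.0163). It was lost without control array 3 (adjusted p = 0.0526), resistant array 10 (0.0777) or resistant array 11 (0.0571), with a range of 0.00309 to 0.0803. Housekeeping scaling ended it too (0.0803).

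USP49, a histone H2B enzyme, had the widest fall at 71.25 nM among the brightest probes of the USP genes, while the dimmer probe of USP13 fell farther. It had 6.93, 6.90 and 6.12 at 71.25 nM and 7.62, 7.30 and 7.48 in control cells. Array 9 at 71.25 nM was far below the others, and the groups did not overlap. The difference was -0.82 ± 0.21 SE (0.567-fold, adjusted p = 0.00695), and it passed in all 25 alternatives. In resistant cells it was -0.25 ± 0.21 SE (adjusted p = 0.368) and at 25 nM -0.22 ± 0.21 SE (adjusted p = 0.499). USP24 fell by 0.38 ± 0.14 SE on the log2 scale at 71.25 nM (adjusted p = 0.0419), with signals of 6.77, 6.98 and 7.0007 at 71.25 nM against 7.15, 7.32 and 7.43 in control cells. That call was lost without control array 2 or 3, 25 nM array 4, any of the 71.25 nM arrays 7, 8 and 9, or resistant array 11 (adjusted p from 0.0519 to 0.151, against 0.0187 as the lowest over the alternatives). It was also lost with housekeeping scaling (adjusted p = 0.0745) and with no filter (0.0718). On the authors' values without the sample whose description gives 25 nM it did not pass either (0.103).

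USP48 rose by 0.30 ± 0.09 SE at 71.25 nM (adjusted p = 0.0215) and by 0.36 ± 0.09 SE at 25 nM (adjusted p = 0.0131). Its signals were 7.90, 7.82 and 7.73 at 71.25 nM, 7.96, 7.84 and 7.81 at 25 nM, against 7.44, 7.56 and 7.55 in control cells, with no overlap with control. The mean of its 4 kept probes gave -0.06 at 71.25 nM and -0.10 at 25 nM, and none of its 3 dimmer probes passed at either dose. The 71.25 nM call was lost without control array 1 (adjusted p = 0.0816), 71.25 nM array 7 (0.0845) or 71.25 nM array 8 (0.0503), and the 25 nM call without control array 1 (0.054) or 25 nM array 4 (0.0587). Median scaling ended both, at 71.25 nM (0.239) and at 25 nM (0.116). With only the groups compared in the model, the 71.25 nM call was lost as well (0.0661). Over the alternatives the adjusted p ran from 0.00758 to 0.661 at 71.25 nM and from 0.00295 to 0.443 at 25 nM. The histone H2A enzymes USP3, USP16 and USP21, and USP36 and USP42, did not pass against control, with differences between -0.19 (USP36 in resistant cells) and 0.25 (USP16 at 71.25 nM).

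Of 13 genes listed for endosomes, receptors and signalling, 9 were tested. In resistant cells 1 was higher and 3 lower, at 71.25 nM 1 was higher and 2 lower, and at 25 nM none of the 9 passed, with 0 of them past an unadjusted p of 0.05 either. Of all genes 47.1%, 39.1% and 27% changed in these groups. By direction, 23%, 19.4% and 13.3% of all genes were higher and 24.1%, 19.6% and 13.7% lower. USP2, which acts on cyclin D1 and MDM2, had 6.52, 6.41 and 6.33 in resistant cells, 6.50, 6.44 and 6.63 at 71.25 nM, 6.72, 6.94 and 6.68 at 25 nM, against 7.35, 7.12 and 6.76 in control cells. The resistant and 71.25 nM arrays all lay below the control arrays and overlapped each other. The difference from control was -0.65 ± 0.14 SE in resistant cells (adjusted p = 0.00151), -0.56 ± 0.14 SE at 71.25 nM (adjusted p = 0.00612) and -0.29 ± 0.14 SE at 25 nM (adjusted p = 0.144). Both calls held in all 25 alternatives.

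USP4, an enzyme of TGF-beta receptor and Wnt signalling, had 6.29, 6.45 and 6.29 in resistant cells against 6.88, 6.71 and 6.89 in control cells (-0.48 ± 0.11 SE, adjusted p = 0.00318). USP10, which acts on p53 and binds the stress granule protein G3BP1, had 8.14, 8.29 and 8.52 in resistant cells against 8.78, 8.81 and 8.63 in control cells (-0.42 ± 0.11 SE, adjusted p = 0.0072). The arrays of the groups did not overlap for either gene, and both calls held in all 25 alternatives. With drug neither gene passed: USP4 differed from control by -0.22 ± 0.11 SE at 71.25 nM and -0.08 ± 0.11 SE at 25 nM, and USP10 by -0.21 ± 0.11 SE and -0.10 ± 0.11 SE at the same doses.

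USP15, a relative of USP4 that acts on SMAD signalling, had 6.50, 6.37 and 6.36 in resistant cells, 5.81, 5.94 and 5.96 at 71.25 nM, 6.47, 6.17 and 6.07 at 25 nM, against 6.22, 6.20 and 6.35 in control cells. The 71.25 nM arrays alone lay apart, below the arrays of all other groups. USP15 fell by 0.35 ± 0.11 SE on the log2 scale at 71.25 nM (adjusted p = 0.0255), a call lost without control array 3 (adjusted p = 0.081) or 71.25 nM array 7 (0.0932), with a range of 0.015 to 0.134 over the alternatives. It was also lost with median scaling (0.0935), housekeeping scaling (0.0703), a trended robust prior (0.0504) and the replicate block on the authors' values (0.0583). On the authors' values without the sample whose description gives 25 nM it did not pass either (0.134). USP12, which WDR48 activates, had 5.81, 6.34 and 6.34 at 71.25 nM against 5.57, 5.89 and 5.29 in control cells, and the arrays overlapped. It rose by 0.58 ± 0.19 SE (adjusted p = 0.027), a call lost without control array 1 (adjusted p = 0.0651), control array 3 (0.115), 71.25 nM array 8 (0.096) or 71.25 nM array 9 (0.101), with a range of 0.00512 to 0.115. USP12 did not pass with no filter either (0.0649). USP46, its close relative, differed by 0.02 ± 0.17 SE at that dose.

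USP8, an endosomal enzyme that binds STAM and sorts receptors, had 7.25, 7.76 and 7.71 in resistant cells against 7.12, 7.27 and 7.19 in control cells. Resistant array 10 fell among the control arrays, and the other resistant arrays lay above them. The difference of 0.38 ± 0.15 SE passed (adjusted p = 0.0472). It was lost without any of control arrays 1, 2 and 3, 25 nM array 4, 71.25 nM array 7, or resistant arrays 11 and 12 (adjusted p from 0.0585 to 0.177, with a range of 0.00161 to 0.46 over the alternatives). Median scaling (0.46), housekeeping scaling (0.0661), no filter (0.0875) and only the groups compared in the model (0.0684) ended it too. USP9X and USP34 did not pass in any comparison. USP9X differed from control by -0.04 ± 0.12 SE in resistant cells, -0.02 ± 0.12 SE at 71.25 nM and -0.08 ± 0.12 SE at 25 nM, and the 95% intervals of all 3 lay within -0.34 and 0.24.

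Of 9 genes listed for mitochondria, endoplasmic reticulum, Golgi and cytoskeleton, 5 were tested, and in each comparison with control 2 were higher and none lower. Of all genes 23% were higher in resistant cells, 19.4% at 71.25 nM and 13.3% at 25 nM, and a count of 2 in 5 is no result about the list. USP30, which sits on the outer mitochondrial membrane and opposes the removal of mitochondria by parkin, had 6.94, 6.50 and 7.01 in resistant cells, 7.12, 7.24 and 7.29 at 71.25 nM, 6.80, 6.75 and 6.73 at 25 nM, against 5.58, 5.53 and 6.14 in control cells. Control array 3 was higher than the other control arrays, and still below every array of the other groups. The difference from control was 1.07 ± 0.16 SE in resistant cells (2.10-fold, adjusted p = 0.000103), 1.47 ± 0.16 SE at 71.25 nM (2.77-fold, adjusted p = 1.05e-05) and 1.01 ± 0.16 SE at 25 nM (2.02-fold, adjusted p = 0.000504). Each held in all 25 alternatives, with sizes between 0.48 and 1.67 over the 3 comparisons.

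USP38 had 8.79, 8.75 and 8.98 in resistant cells, 8.73, 8.80 and 8.81 at 71.25 nM, 8.61, 8.62 and 8.61 at 25 nM, against 8.19, 8.18 and 8.55 in control cells. Control array 3 stood above the other control arrays, and all control arrays lay below the rest. The difference from control was 0.53 ± 0.11 SE in resistant cells (adjusted p = 0.00165), 0.47 ± 0.11 SE at 71.25 nM (adjusted p = 0.00503) and 0.31 ± 0.11 SE at 25 nM (adjusted p = 0.0668). Median scaling ended both calls, with 0.21 in resistant cells (adjusted p = 0.331, the highest over the alternatives, from 4.27e-05) and adjusted p = 0.0613 at 71.25 nM (from 2.09e-04). USP45, known for its action on the repair protein ERCC1, rose by 0.54 ± 0.16 SE at 25 nM (adjusted p = 0.0284), with 5.67, 5.28 and 5.25 at 25 nM against 5.03, 4.81 and 4.74 in control cells. It was detected on all 3 of the 25 nM arrays and on 1 of 3 control arrays, so the control level lies near background. The call was lost without control array 2 (adjusted p = 0.075), control array 3 (0.0914) or 25 nM array 4 (0.124), and on the authors' values (0.0685), with a range of 0.0149 to 0.124. On those values it was also lost with the replicate block (0.086) and without the sample whose description gives 25 nM (0.0777). No background removed (0.0633) and no filter (0.0595) ended it too. USP33 did not pass, with differences between 0.01 (25 nM) and 0.30 (71.25 nM). USP32 did not pass either, and it was detected on none of the arrays at 71.25 nM and 25 nM, so no size is given for it there.

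USP18 removes the ubiquitin-like protein ISG15 and damps interferon signalling. It had 5.86, 6.03 and 6.14 in resistant cells, 5.58, 5.71 and 5.07 at 71.25 nM, 5.79, 5.61 and 5.11 at 25 nM, against 6.06, 5.86 and 5.91 in control cells. The drug-treated arrays all lay below the control arrays, 1 array at each dose far below, and the resistant arrays overlapped the control arrays. None of the differences from control passed: 0.07 ± 0.18 SE in resistant cells (-0.02 under median scaling), -0.49 ± 0.18 SE at 71.25 nM (adjusted p = 0.0503) and -0.43 ± 0.18 SE at 25 nM (adjusted p = 0.102). The 71.25 nM difference passed without 25 nM array 4 (adjusted p = 0.0417), 25 nM array 6 (0.0249) or 71.25 nM array 8 (0.0289). It passed in 7 further alternatives, with adjusted p from 0.0296 to 0.0498, among them the authors' values, where it was -0.19. Over all alternatives the adjusted p ran from 0.0249 to 0.226. USP41, a near-identical copy of USP18 which RefSeq now names USP41P, was lower in resistant than in control cells by -0.50 ± 0.17 SE (adjusted p = 0.0319), with 5.29, 5.40 and 5.91 in resistant cells against 5.82, 6.12 and 6.14 in control cells, which overlap. That call was lost without control array 2 (adjusted p = 0.092), control array 3 (0.0955), resistant array 10 (0.133) or resistant array 11 (0.104), with a range of 0.00437 to 0.184. Cyclic loess (0.0501), housekeeping scaling (0.184) and no filter (0.0711) ended it too. Which of the 2 copies a probe reads is uncertain.

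Of 5 genes listed as lacking protease activity, 4 are on the array and USP39 alone was tested. It differed from control by -0.20 ± 0.10 SE in resistant cells, -0.15 ± 0.10 SE at 71.25 nM and -0.0003 ± 0.10 SE at 25 nM, and none passed. USP6NL, the Rab regulator, differed by -0.11 ± 0.18 SE, 0.01 ± 0.18 SE and -0.40 ± 0.18 SE in the same groups (adjusted p = 0.12 at 25 nM).

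Between the doses no USP gene passed on its brightest probe. The dimmer probe of USP13 was lower at 71.25 nM than at 25 nM by -0.55 ± 0.13 SE (adjusted p = 0.0252). The mean of the kept USP13 probes gave -0.35 (adjusted p = 0.0442). Counts below use the brightest probes. With limma 0 of 34 changed at 71.25 nM against 25 nM, against 5.87% of all genes (2.98% higher and 2.88% lower), and 4 had an unadjusted p under 0.05. Groups did not overlap for 10 of 34 (29.4%, against 29.2%), and the median difference was 0.02 (all genes -0.001). Among the brightest probes the widest difference was that of USP49, -0.60 ± 0.21 SE (95% interval -1.05 to -0.15, adjusted p = 0.112). Next came USP30, with 0.46 ± 0.16 SE (95% interval 0.11 to 0.81, adjusted p = 0.12). These 2 did pass on signals without background correction, with an offset of 50 and on the authors' values, and USP30 passed with only these groups in the model. Among the genes that rose at both doses, USP5 differed between doses by -0.02 ± 0.10 SE (95% interval -0.25 to 0.20) and USP11 by 0.10 ± 0.13 SE (95% interval -0.18 to 0.38). Equal levels at both doses are not shown by these intervals.

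Against the cells given 71.25 nM for 24 h, 7 of 34 USP genes changed in resistant cells (20.6%, against 21.6% of all genes), 2 higher (5.88%, against 11.3%) and 5 lower (14.7%, against 10.3%). Groups of 13 genes did not overlap (38.2%, against 37.9%), and the median difference was -0.06 (all genes -0.009). USP22 was lower by -0.61 ± 0.14 SE (adjusted p = 0.00593), with 7.22, 7.19 and 7.24 on the arrays at 71.25 nM. USP1 was lower by -0.58 ± 0.10 SE (adjusted p = 0.000792), USP7 by -0.39 ± 0.10 SE (adjusted p = 0.0112), and the calls of these 3 held in all 25 alternatives. They were thus lower in resistant cells than in control cells and than in cells under acute drug, by tests that share the resistant arrays. For USP22 the call against control was lost in 6 of the 25 alternatives (adjusted p up to 0.136). Its call against 25 nM was lost in 3 (up to 0.0657). Under median scaling the median of all genes was -0.13 in this comparison, and 0 USP genes were higher and 6 lower. Of all genes changed under that scaling, 27% were higher. The share of all genes called was not counted in that setting, so these counts are no result about the family.

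USP13 was lower by -0.52 ± 0.13 SE on its brightest probe (adjusted p = 0.0118), a call lost without resistant array 11 (adjusted p = 0.0511) or 12 (0.0537), and the mean of its probes gave 0.09 (adjusted p from 0.000752 to 0.57 over the alternatives). USP5 was lower by -0.34 ± 0.10 SE (adjusted p = 0.0355), a call lost without 71.25 nM array 7 or 9 or any of resistant arrays 10, 11 and 12 (adjusted p from 0.0537 to 0.139, and from 0.00296 over the alternatives). Cyclic loess (0.0533) and only the groups compared in the model (0.0648) ended the USP5 call too. USP15 was higher by 0.50 ± 0.11 SE (adjusted p = 0.00626, and 0.115 under median scaling, with a range of 0.00358 to 0.115). USP18 was higher by 0.56 ± 0.18 SE (adjusted p = 0.0452), a call lost without any of control arrays 1, 2 and 3, 25 nM array 5, 71.25 nM array 7 or 9, or resistant arrays 10, 11 and 12 (adjusted p from 0.054 to 0.184, and from 0.0205 over the alternatives). Without 71.25 nM array 9 its difference was 0.36. The USP18 call was also lost with median scaling (adjusted p = 0.0933) and with no filter (0.0974). On the authors' values without the sample whose description gives 25 nM it did not pass either (0.055). On the authors' values USP15 differed by 0.24, USP18 by 0.22 and USP22 by -0.36, and under median scaling USP5 by -0.58 and USP7 by -0.64. Without resistant array 11 the count of changed USP genes was 4, and on the authors' values it was 11, with USP11, USP30, USP34 and USP49 added.

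Against the cells given 25 nM, 9 of 34 USP genes changed in resistant cells (26.5%, against 29.6% of all genes), 2 higher (5.88%, against 15.4%) and 7 lower (20.6%, against 14.2%). Groups of 14 genes did not overlap (41.2%, against 44.9%), and the median difference was -0.01 (all genes -0.02). Lowest were USP13 (-0.66 ± 0.13 SE, adjusted p = 0.00162), USP1 (-0.51 ± 0.10 SE, adjusted p = 0.00125) and USP22 (-0.50 ± 0.14 SE, adjusted p = 0.0134). USP4, USP7, USP5 and USP10 were lower by -0.40, -0.39, -0.36 and -0.32. Under median scaling USP1 was at -0.83, USP7 at -0.70, USP5 at -0.66 and USP10 at -0.62, on the authors' values USP22 was at -0.29 and USP4 at -0.21, and the mean of kept probes put USP1 at -0.92. USP11 was higher by 0.47 ± 0.13 SE (adjusted p = 0.0162) and USP3 by 0.27 ± 0.09 SE (adjusted p = 0.0437), with 0.20 and -0.03 under median scaling. Under that scaling 0 were higher and 10 lower, and the median of all genes was -0.16. Of all genes changed in that setting, 23.7% were higher. The share of all genes called was not counted there, so these counts are no result about the family.

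Without 25 nM array 6 the count against 25 nM was 3. Of the 9 calls, those of USP1 and USP7 held in all 25 alternatives. USP22 was lost without 25 nM array 5 (adjusted p = 0.0537), 25 nM array 6 (0.0526) or resistant array 11 (0.0657), USP5 without 25 nM array 6 (0.0732) or resistant array 12 (0.0718), and USP11 without 25 nM array 6 (0.0611) or resistant array 12 (0.0636). USP4 was lost without 25 nM array 4 (adjusted p = 0.0601), 25 nM array 6 (0.0513), resistant array 10 (0.0575) or resistant array 12 (0.0575). USP10 was lost without control array 1 or 2, any of 25 nM arrays 4, 5 and 6, any of 71.25 nM arrays 7, 8 and 9, or resistant array 10 or 11 (adjusted p from 0.0515 to 0.186). USP3 was lost without control array 1, any of 25 nM arrays 4, 5 and 6, 71.25 nM array 7 or 8, or resistant array 11 or 12 (adjusted p from 0.0515 to 0.142). Housekeeping scaling also ended the calls of USP4 (0.0774) and USP3 (0.223), and median scaling those of USP11 (0.429) and USP3 (0.912). With only the groups compared in the model, USP10 (0.0811) and USP3 (0.0726) were lost. Cyclic loess (0.0523) and no filter (0.0554) ended the USP10 call too. Over the alternatives the lowest and highest adjusted p were 0.00135 and 0.0657 for USP22, 0.00106 and 0.0732 for USP5, 0.000998 and 0.429 for USP11, 0.00803 and 0.0774 for USP4, 0.00602 and 0.186 for USP10 and 0.00669 and 0.912 for USP3. The mean of the probes of USP13 gave -0.26 (adjusted p = 0.0529, the highest over the alternatives, from 3.69e-05). Against control, the count at 25 nM was 3 without 25 nM array 4.

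Of the tested genes 10 had several kept probes, and for 8 of these the probes differed in call in at least 1 comparison. USP1, USP8, USP13, USP14 and USP48 are described here, chosen after their values were seen. For the other 3 the difference in call was in 1 comparison each: USP2 at 71.25 nM against control, USP4 in resistant cells against 25 nM, and USP16 in resistant cells against 71.25 nM, where the dimmer probe was lower by -0.48 (adjusted p = 0.0289) and the brightest differed by -0.06. The brightest probe of USP13 had a mean of 8.07 and the other 6.63. The dimmer probe was lower by -1.62 ± 0.13 SE at 71.25 nM (adjusted p = 5.02e-07) and by -1.07 ± 0.13 SE at 25 nM (adjusted p = 4.75e-05), and was lower in resistant than in control cells by -0.93 ± 0.13 SE. In resistant cells against 71.25 nM it was higher by 0.69 ± 0.13 SE (adjusted p = 0.00171), where the brightest probe was lower by -0.52. The probes of USP13 place its lowest level in different groups, and both place control highest.

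The dimmer probe of USP14 was higher in resistant than in control cells by 0.64 ± 0.13 SE (adjusted p = 0.0014) and at 25 nM by 0.47 ± 0.13 SE (adjusted p = 0.0193), and differed by 0.07 ± 0.13 SE at 71.25 nM. In resistant cells against 71.25 nM that probe was higher by 0.57 ± 0.13 SE (adjusted p = 0.00811). The dimmer probe of USP1 was lower in resistant cells by -1.57 ± 0.14 SE (adjusted p = 5.88e-07) and fell by 0.58 ± 0.14 SE on the log2 scale at 71.25 nM (adjusted p = 0.00422). The dimmer probe of USP8 was higher in resistant cells by 0.59 ± 0.14 SE (adjusted p = 0.00322) and at 71.25 nM by 0.80 ± 0.14 SE (adjusted p = 0.000434). Against control, the probes of USP1 and those of USP8 share a direction and differ in size. The 3 dimmer probes of USP48 were lower in resistant than in control cells, by -0.52, -0.49 and -0.72 (adjusted p = 0.0187, 0.0376 and 0.0178), while the brightest differed by 0.12 ± 0.09 SE. The USP48 probe with a mean of 6.35 was also lower in resistant cells against 71.25 nM (-0.56, adjusted p = 0.0264) and against 25 nM (-0.50, adjusted p = 0.0346). Which transcripts each probe binds was not analysed here.

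**Figure D4:**
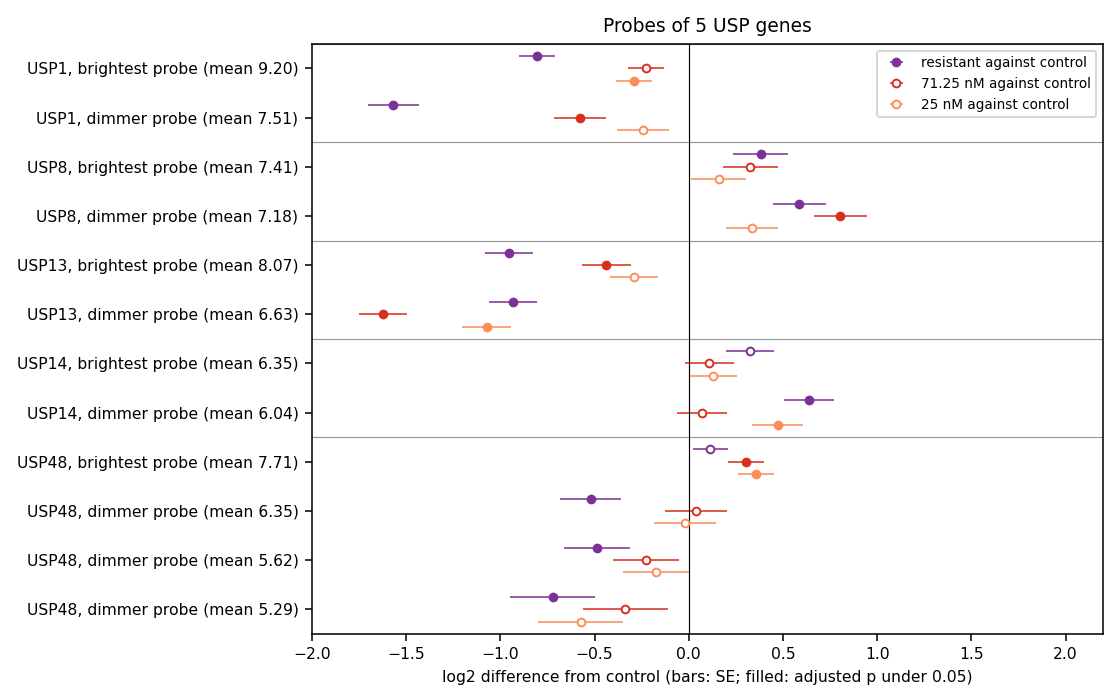
Log2 difference from control (x axis; bars are standard errors, n = 3 arrays per group) for each kept probe of 5 USP genes (y axis, with the mean log2 signal of the probe), filled for adjusted p under 0.05. The dimmer USP13 probe reaches -1.62 at 71.25 nM where the brightest is at -0.44, and the USP48 probes fall on both sides of 0.

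Other deubiquitinases outside the family were listed by class, and of 37 listed 32 were tested. The list also holds relatives that are not active deubiquitinases, such as PSMD7 and COPS6, and they are part of the counts. In resistant cells 14 were higher and 5 lower than in control cells, at 71.25 nM 15 rose and 4 fell, and at 25 nM 7 rose and 4 fell. Of all genes 47.1%, 39.1% and 27% changed in these comparisons. By direction, 23%, 19.4% and 13.3% of all genes were higher and 24.1%, 19.6% and 13.7% lower. The median difference of the listed genes from control was 0.27, 0.32 and 0.12 in these groups, where that of all genes was -0.02, -0.006 and -0.002. JOSD1, of the Josephin class, had 9.83, 9.60 and 9.57 in resistant cells, 9.71, 9.71 and 9.65 at 71.25 nM, 9.30, 9.34 and 9.48 at 25 nM, against 8.39, 8.38 and 8.61 in control cells. PSMD14, the metalloprotease that removes chains at the proteasome lid, was higher by 0.70 ± 0.11 SE, 0.72 ± 0.11 SE and 0.55 ± 0.11 SE in the same groups, and TNFAIP3, the NF-kB inhibitor A20, by 1.07 ± 0.10 SE, 0.72 ± 0.10 SE and 0.65 ± 0.10 SE. UCHL5, the other cysteine protease of the proteasome, was lower in resistant cells by -0.74 ± 0.095 SE (adjusted p = 2.33e-05) and differed by -0.06 ± 0.095 SE at 71.25 nM and -0.08 ± 0.095 SE at 25 nM. Of the 3 deubiquitinases found at the proteasome, PSMD14 was thus higher and UCHL5 lower in resistant cells. USP14 did not pass there on its brightest probe, while its dimmer probe was higher by 0.64 ± 0.13 SE (adjusted p = 0.0014).

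Partners that bind or activate USPs were listed too, and 12 of 13 were tested. In resistant cells 5 were higher and 1 lower, at 71.25 nM 4 rose and 1 fell, and at 25 nM 3 rose and 1 fell, with medians of 0.20, 0.25 and 0.11. Of all genes 23% were higher and 24.1% lower in resistant cells, 19.4% and 19.6% at 71.25 nM, and 13.3% and 13.7% at 25 nM. PSMD2, the proteasome subunit on which USP14 docks, had 11.24, 11.36 and 11.18 in resistant cells, 11.47, 11.29 and 11.31 at 71.25 nM, 11.61, 11.46 and 11.42 at 25 nM, against 10.01, 10.16 and 9.94 in control cells. Every control array lay below all others, and the difference was 1.22 ± 0.10 SE, 1.32 ± 0.10 SE and 1.46 ± 0.10 SE in the groups in that order. ADRM1, the docking subunit of UCHL5, was higher by 1.10 ± 0.10 SE in resistant cells, 1.07 ± 0.10 SE at 71.25 nM and 1.05 ± 0.10 SE at 25 nM. STAM, the endosomal partner of USP8, was higher by 0.98 ± 0.14 SE, 0.84 ± 0.14 SE and 0.46 ± 0.14 SE in the same groups. WDR48, the activator of USP1, USP12 and USP46, did not pass against control (0.12 ± 0.11 SE in resistant cells), and WDR20, which joins it on USP12 and USP46, was lower in resistant cells by -0.46 ± 0.11 SE (adjusted p = 0.0026). G3BP1, the partner of USP10, fell by 0.47 ± 0.10 SE at 71.25 nM and by 0.43 ± 0.10 SE at 25 nM on the log2 scale.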

How the data were processed

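Per the labels, total RNA of 12 samples was hybridised to Illumina HT-12 arrays. The authors deposited non-normalized probe intensities with a detection p-value for each, and a second table of intensities that they corrected on housekeeping genes and quantile normalized, per the series text. No depth applies to arrays: their number limits precision, and the median standard error was 0.137 on the log2 scale. Here the non-normalized intensities were background corrected with limma 3.58.1 in R 4.3.3 (nec, normexp, negative controls inferred from the detection p-values, offset 16), put on a log2 scale and quantile normalized. Of 47227 probes, the 20414 detected at p under 0.05 on at least 3 arrays were kept, and the brightest kept probe stood for a symbol. 54 probes with date-like symbols and 3270 without a symbol were left out of gene counts. limma (lmFit with 1 mean per group over 12 arrays, eBayes, Benjamini-Hochberg over kept probes) gave all adjusted p-values. The fit was tested on simulated data. Same-numbered samples of different groups did not deviate together on the authors' values: of 18 pairs 2 had a correlation over 0.1 (-0.29 to 0.16). Correlations of normalized values cannot show whether samples of the same number were handled together. Alternatives were background, offset, normalization, filter, probe choice, prior, samples in the model, each array left out and the authors' values. USP14, USP5, USP7, USP1 and USP18, the 5 widest changes each way against control and the 3 widest each way elsewhere were named, the rest by role list. The members, lists and motifs were chosen with earlier results of these data known. Figures were drawn with matplotlib 3.10.9.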

Additional observations from a re-analysis of the deposited data

How the results depend on the processing

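Of 47 called gene differences, 21 kept direction and call in all 25 alternatives. Between the doses the count of changed USP genes, 0 in the values reported, was 2 on the authors' values, with an offset of 50 and when no background was removed, and 1 with the mean of kept probes, with only the groups compared, and with the replicate block on the authors' values. It was also 2 on the authors' values without the 1 sample whose description and title disagree, an alternative chosen after seeing the data. Resistant against 71.25 nM, the count of 7 was 11 in the same 3 settings and with the replicate block on the authors' values. No pairing by number was seen in the authors' values, and 1 of 12 samples correlated best with its own number. With the replicate block 16 genes were called in resistant cells, 13 at 71.25 nM and 7 at 25 nM, where the same values without it gave 16, 14 and 7. Leaving out 1 array gave counts of 10 to 15 in resistant cells, 8 to 13 at 71.25 nM and 3 to 6 at 25 nM against control, 4 to 8 in resistant cells against 71.25 nM, 3 to 10 against 25 nM, 0 to 0 between doses and 11 to 18 across the 4 groups. The share of all genes called was not counted in these alternatives, so these counts are no result about the family. Under the mean of kept probes USP48 turned to -0.055 at 71.25 nM and -0.10 at 25 nM, and USP13 to 0.086 in resistant cells against 71.25 nM. Under median scaling USP7 turned to -0.027 at 71.25 nM, USP18 to -0.022 in resistant against control cells and USP3 to -0.032 in resistant cells against 25 nM. For these the cause was not tested. Signals near background, as for USP45 and USP32, limit what can be measured.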
